A study of Mus musculus with 5 samples.

Results

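The regions described here are CpG-poor promoters of protein-coding genes at which both Gfi1 and Lsd1 had a ChIP-seq peak in both of the MG tumors studied. A member is an autosomal protein-coding transcription start site (TSS) with fewer than 15 CpG dinucleotides within 500 bp on either side, a peak within 1 kb in all 4 peak files, and no TSS of any gene with 15 or more CpGs within 2 kb. The members were therefore chosen by the peaks themselves, so that their occupancy, scores and widths are given as descriptions and with no test. Of 52092 autosomal coding TSSs, 14609 (28.0%) were CpG-poor and 12809, of 7747 genes, also met the distance from CpG-rich TSSs. The rule left 279 TSSs of 188 genes. They were joined into 187 sites where start sites shared a closest peak, since such TSSs are not separate observations.

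The tumors are murine medulloblastomas made from cerebellar neural stem cells of mouse pups. The paper used pups of C57BL/6 mice and of lines with CAG-CreER, floxed Lsd1 or both. It does not name the donor line of tumors 39 and 41. The cells were transduced with retroviruses for Myc and Gfi1 and grown after transplantation into the cerebella of immunodeficient NSG mice. Gfi1 is thus expressed from a viral vector in the MG tumors, and host cells can be present in a tumor. Gfi1 and Lsd1 were each immunoprecipitated from tumors 39 and 41, which gave 4 libraries with 1 peak file each. The input control is a pool of MGB tumors, made with Myc and Gfi1b in place of Gfi1, and was not analysed here. Values below are given for tumor 39 and then tumor 41 of each factor, and an error is the SD over the 2 tumors (n = 2). With 2 tumors an exact paired test cannot go below a two-sided p of 0.5, so none was run.

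Most mammalian promoters lie in CpG islands, stretches of GC-rich sequence that stay unmethylated and accessible in most tissues. CpG-poor promoters belong more often to genes used in a single cell type, and they tend to depend on tissue-specific transcription factors. Gfi1 is a zinc finger repressor with an N-terminal SNAG domain, through which it recruits Lsd1, a histone H3 lysine 4 demethylase.

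The bases just before 4 member start sites are shown as examples. They are those of the first 3 members that combine a complete 5′ end with CpG-poor peaks throughout, in order of mean score percentile, and those of Fam118a, one of the 3 sites where Lsd1 stood furthest above Gfi1 among those with a complete 5′ end. The stretches of 120 bases are from RefSeq GRCm38.p6 (mm10), read 5′ to 3′ in the direction of transcription and ending at the base before the TSS, with CG dinucleotides in capitals. Their positions are chr15:73617325-73617444 (minus strand) for Slc45a4, chr1:133921415-133921534 (minus) for Prelp, chr19:4175480-4175599 (minus) for Carns1 and chr15:85042622-85042741 (plus) for Fam118a. In this order the stretches hold 1, 0, 4 and 0 CpGs. Carns1, with 14 CpGs within 500 bp either side of its start, lies just below the cutoff.
Slc45a4: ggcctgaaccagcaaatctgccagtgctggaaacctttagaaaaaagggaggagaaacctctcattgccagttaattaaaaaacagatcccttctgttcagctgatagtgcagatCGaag
Prelp: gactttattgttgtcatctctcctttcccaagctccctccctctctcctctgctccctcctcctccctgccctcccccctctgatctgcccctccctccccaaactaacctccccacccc
Carns1: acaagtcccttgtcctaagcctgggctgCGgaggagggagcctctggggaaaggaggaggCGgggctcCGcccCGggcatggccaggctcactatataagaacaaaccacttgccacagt
Fam118a: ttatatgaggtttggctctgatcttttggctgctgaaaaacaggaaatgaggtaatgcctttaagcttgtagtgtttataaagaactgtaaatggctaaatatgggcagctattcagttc

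At other members the peaks were centred away from the CpG-poor start and held CpG-dense sequence. None of the peaks at Cox11 covered the start. At Klf1 the peaks of Gfi1 in tumor 41 and of Lsd1 in tumor 39 did. For Cox11 and Klf1 the bases before the member start are shown with the 120 bases of the region common to all 4 peaks that hold the most CpGs outside annotated UTRs. For Cox11 these lie at chr11:90640058-90640177 and chr11:90638316-90638435, and for Klf1 at chr8:84901808-84901927 and chr8:84903089-84903208, all on the plus strand. Both of the dense stretches overlap annotated exons.
Cox11 before the start: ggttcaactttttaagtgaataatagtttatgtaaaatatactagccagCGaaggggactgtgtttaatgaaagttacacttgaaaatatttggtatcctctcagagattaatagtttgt
Cox11 densest: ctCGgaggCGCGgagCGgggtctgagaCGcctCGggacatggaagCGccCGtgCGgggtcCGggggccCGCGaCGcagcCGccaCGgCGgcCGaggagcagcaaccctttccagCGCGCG
Klf1 before the start: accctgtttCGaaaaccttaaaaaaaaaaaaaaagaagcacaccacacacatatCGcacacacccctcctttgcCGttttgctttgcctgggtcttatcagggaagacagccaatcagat
Klf1 densest: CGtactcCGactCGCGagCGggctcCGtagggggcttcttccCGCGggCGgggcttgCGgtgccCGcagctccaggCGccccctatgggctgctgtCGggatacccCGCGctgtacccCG
The Cox11 stretches hold 1 and 20 CpGs, and the Klf1 stretches 3 and 16.

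The share of CpG-poor TSSs that became members was low. A peak within 1 kb was found at 4.56% and 3.32% of the 12809 CpG-poor TSSs for Gfi1, and at 5.00% and 4.78% for Lsd1. In all 4 files it was 2.18%, and 2.43% of the 7747 genes with such a TSS were members. Among CpG-rich coding TSSs 69.4% had a peak in all 4 files, which is 26028 of 37483. No peak was listed at 11886 CpG-poor TSSs, while 303 had one in 1 file, 181 in 2 and 160 in 3. Of those 160, the missing file was Gfi1 of tumor 41 at 85, Gfi1 of tumor 39 at 45, Lsd1 of tumor 39 at 16 and Lsd1 of tumor 41 at 14. The Gfi1 list of tumor 41 is also the shortest, with 25078 peaks against 30367 to 36836 in the other files, and its part in the missing peaks was not tested.

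**Figure D1:**
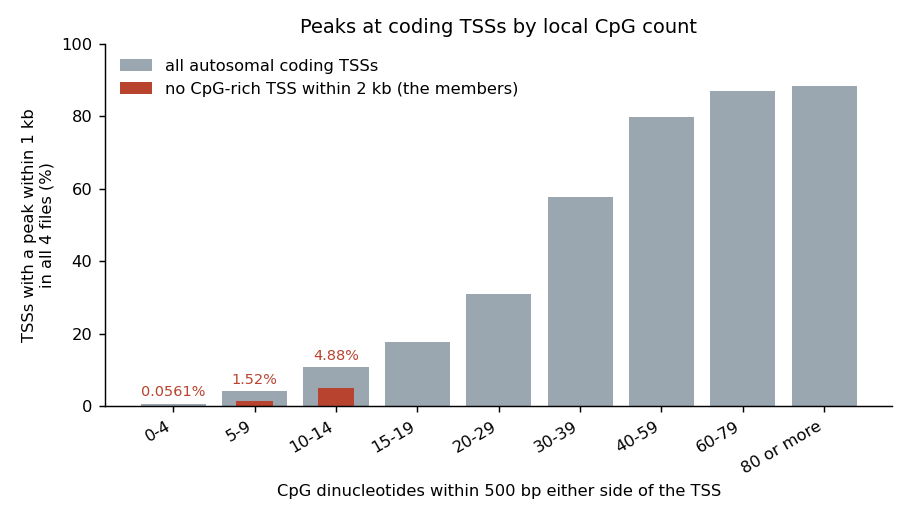
Share of autosomal coding TSSs with a peak within 1 kb in all 4 files (y axis, %) by the number of CpGs within 500 bp either side (x axis). Grey bars are all TSSs, red bars the TSSs with no CpG-rich TSS within 2 kb, whose shares are 0.0561%, 1.52% and 4.88%, and the share reaches 88.3% at 80 or more CpGs.

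Within the CpG-poor range the share was larger at higher CpG counts. It was 0.0561% for 0 to 4 CpGs (2 of 3567 TSSs), 1.52% for 5 to 9 (79 of 5182) and 4.88% for 10 to 14 (198 of 4060). Without the distance criterion these shares were 0.684%, 4.08% and 10.7%, and they went on through 17.7% at 15 to 19 CpGs to 88.3% at 80 or more. No step was seen at the cutoff. TSSs with 14 CpGs had peaks in all 4 files at 6.41% (36 of 562), and those with 15 CpGs that met the other criteria at 7.96% (48 of 603). The median score percentiles of the 2 groups were 56.4 and 52.8 against 62.2 and 54.9 for Gfi1, and 63.8 and 63.6 against 71.3 and 65.2 for Lsd1.

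The members held a median of 11 CpGs within 500 bp either side, with a range of 4 to 14, and a median GC content of 52.8%. CpG-poor TSSs with no peak in any file had a median of 7 CpGs and 42.4% GC, and lay farther from CpG-rich TSSs, with a median distance of 33322 bp against 6208 bp for the members. The closest CpG-rich TSS was at 2 to 3 kb for 58 sites, at 3 to 5 kb for 32, at 5 to 10 kb for 38 and beyond 10 kb for 59. At 104 sites the gene itself had a CpG-rich coding TSS upstream of the member, so that the member is an alternative start inside the gene. A further 23 sites had one downstream, and 60 had none. Transcripts in the annotation's basic set with a complete 5′ end started at 172 of the 279 TSSs, at 126 sites. The other members are starts of transcript models whose true 5′ ends may lie elsewhere.

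The scores of member peaks lay below those of CpG-rich promoters and slightly above those of distal peaks. A score percentile is the rank of a peak's score among the peaks of its own file, in percent, where tied scores take the mean of their ranks. Scores of 3100 or more were listed for 910 and 13 Gfi1 peaks and for 138 and 488 Lsd1 peaks, many of them tied, so that the top percentiles of different files are not comparable in fine order. The median percentile at members was 57.9 and 52.7 for Gfi1 and 69.6 and 63.2 for Lsd1, or 55.3 ± 3.67 and 66.4 ± 4.52 (SD, n = 2). At CpG-rich promoters with peaks in all files the medians came to 84.6 and 75 for Gfi1 and 79.2 and 82.4 for Lsd1. Members minus CpG-rich promoters came to -24.5 ± 3.11 percentile points for Gfi1 and -14.4 ± 6.81 for Lsd1, lower in 4 of 4 libraries and beyond the SD between tumors. Peaks over 1 kb from any TSS that were shared by all 4 files had medians of 53.1 and 42.9 for Gfi1 and 55.3 and 55.1 for Lsd1. Members stood above these by 7.35 ± 3.55 and 11.2 ± 4.40 points, in 4 of 4 libraries. The upper 20% of each file's scores held 22.5% and 20.2% of member peaks for Gfi1 and 36.0% and 27.3% for Lsd1, against 63.3% and 41%, and 48.2% and 56.2%, at CpG-rich promoters.

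**Figure D2:**
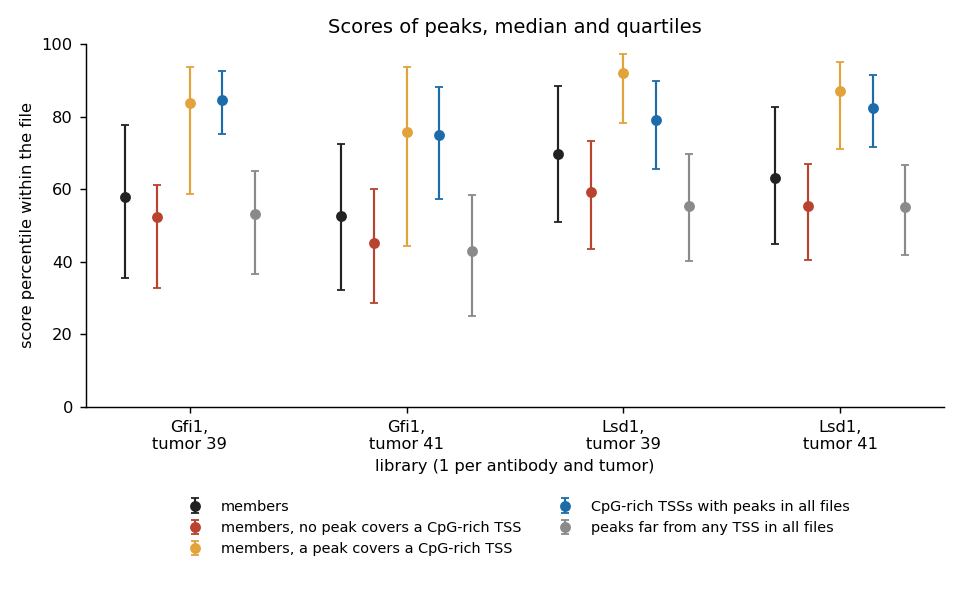
Score percentile within the file (y axis) in each of the 4 libraries (x axis). Points are medians over distinct peaks and bars the quartiles, for all members, the members split by whether a peak covers a CpG-rich TSS, CpG-rich promoters and distal peaks. Members without such a peak lie at 45 to 59.3, near the distal peaks, and members with one at 75.8 to 91.9.

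The higher scores came with peaks that extended over a CpG-rich promoter nearby. The rule kept such promoters 2 kb away from the TSS but did not limit the peaks. A peak of at least 1 file covered a CpG-rich TSS at 65 sites, in all 4 files at 24 of them, and no peak did at the other 122 (65.2%). Where one did, the median percentiles came to 83.6 and 75.8 for Gfi1 and 91.9 and 87.0 for Lsd1. At the 122 sites they came to 52.2 and 45 for Gfi1 and 59.3 and 55.3 for Lsd1, or 48.6 ± 5.07 and 57.3 ± 2.84, close to the distal means of 48.0 ± 7.22 and 55.2 ± 0.124. Of the 19 sites in the upper 20% of the scores in all 4 files, 17 were in the first group. The exceptions were Clec11a and Klf13. Of the 18 sites in the lower 50% in all 4 files, 1 was in it. A wide peak reaches farther and spans more sequence by construction, so that this split also sorts peaks by width.

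Distance to the closest CpG-rich TSS gave the same order for near sites. At 2 to 3 kb the median percentile was 77.1 and 71.5 for Gfi1 and 88.7 and 84.1 for Lsd1. It was 59.5 and 56.3, and 66.0 and 66.2, at 3 to 5 kb. At 5 to 10 kb it was 47.7 and 34.6, and 57.1 and 54.8. Beyond 10 kb it was 54.9 and 50.7, and 64.5 and 56.2, which is above the values at 5 to 10 kb in 4 of 4 libraries. The CpG count at the TSS itself gave no such order within the members. For Gfi1 the medians were 55.0 ± 3.37 at 4 to 9 CpGs, 52.3 ± 7.72 at 10 to 12 and 57.2 ± 2.03 at 13 to 14, and for Lsd1 68.0 ± 6.18, 64.6 ± 5.11 and 67.4 ± 3.52, with no 2 of a factor's values apart by more than the larger of their SDs. Nor did the medians of sites whose own gene has a CpG-rich start upstream (54.2 ± 2.06 for Gfi1, 67.1 ± 3.45 for Lsd1) differ beyond that from those of sites whose gene has none (55.9 ± 4.18 and 65.0 ± 4.44).

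**Figure D3:**
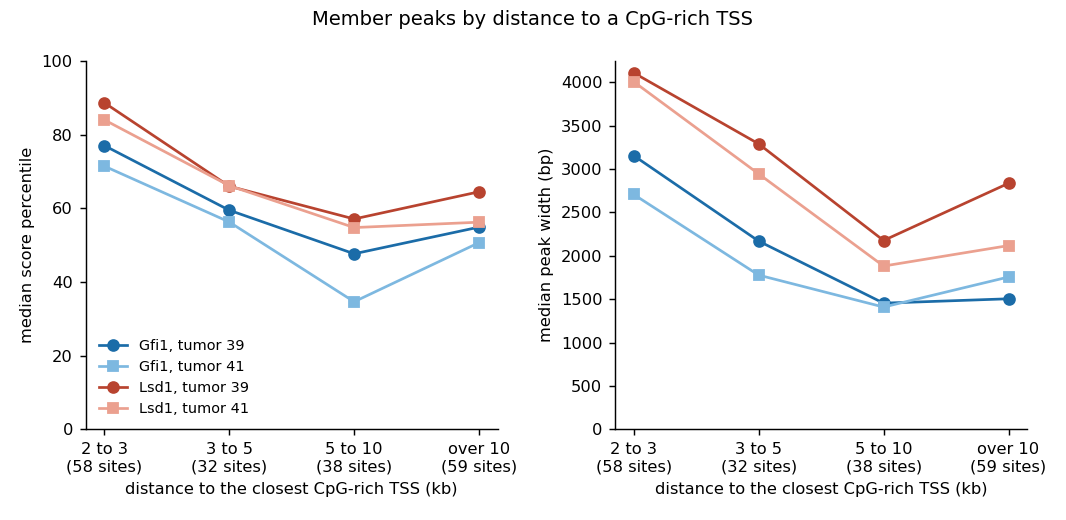
Median score percentile (left) and median peak width in bp (right) of member peaks in each library, by distance from the member TSS to the closest CpG-rich TSS in kb (x axis, with the number of sites). Every library is highest at 2 to 3 kb and lowest at 5 to 10 kb, with 71.5 and 34.6 percentile points for Gfi1 in tumor 41, for example.

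Gfi1 peaks at members were narrower, and Lsd1 peaks wider, than those of the same factor at CpG-rich promoters. The median width was 1795 and 1812 bp for Gfi1 against 2176 and 2112 bp, a difference of -381 and -300 bp. For Lsd1 it was 3175 and 2608 bp against 2534 and 2465 bp, a difference of 641 and 143 bp. Within a tumor the Lsd1 peak median exceeded that of Gfi1 by 1380 and 796 bp at members, and by 358 and 353 bp at CpG-rich promoters. The opposite signs of the factors did not hold at the 122 sites whose peaks cover no CpG-rich TSS. There the medians were 1471.5 and 1583.5 bp for Gfi1 and 2336 and 1929.5 bp for Lsd1, below the CpG-rich promoters in 4 of 4 libraries. Where a peak covers one, they were 3495 and 3018 bp for Gfi1 and 5290 and 4623 bp for Lsd1. Distal peaks had medians of 1535 and 1474 bp and of 2027 and 1821 bp. Choosing sites whose peaks cover no CpG-rich TSS favours narrow peaks by construction, and the CpG-rich promoters were not trimmed in this way. The loss of the opposite signs at the 122 sites therefore cannot be read as a result about the factors.

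**Figure D4:**
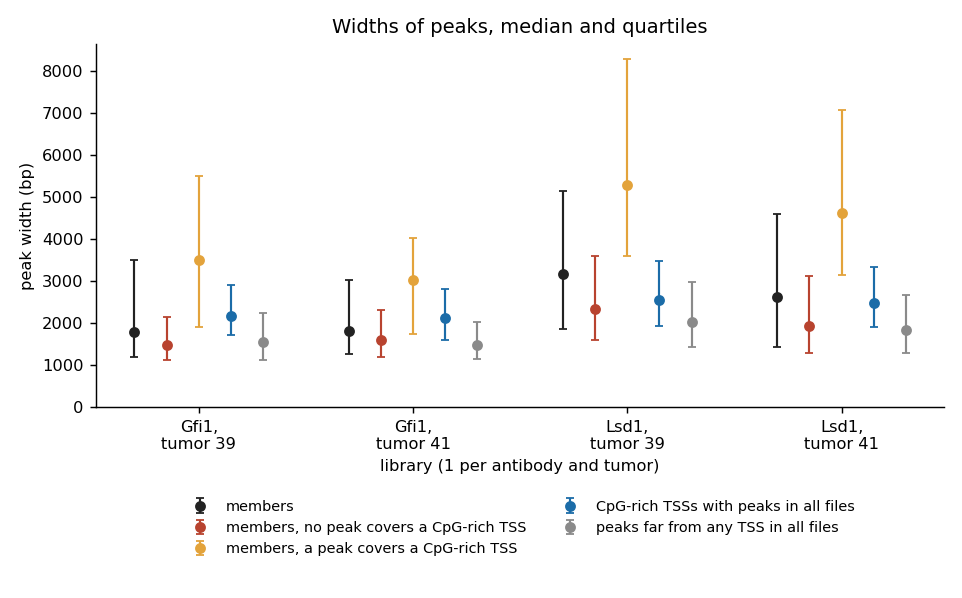
Peak width in bp (y axis) in each of the 4 libraries (x axis), as medians (points) and quartiles (bars) over distinct peaks of the sets in the legend. Members of which a peak covers a CpG-rich TSS have the widest peaks, with medians from 3018 to 5290 bp, and the other members lie from 1471.5 to 2336 bp.

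The rank of a site in one library was related only in part to its rank in another. Over the 187 sites Spearman's rho of the percentiles was 0.460 between the Gfi1 libraries and 0.682 between the Lsd1 libraries. Between the factors it was 0.537 in tumor 39 and 0.606 in tumor 41, and 0.484 and 0.563 across tumors. These are descriptions over sites that share libraries and, at many sites, a nearby promoter. The Lsd1 percentile was above that of Gfi1 at 127 sites in tumor 39 and at 130 in tumor 41. It was so in both tumors at 91 sites (48.7%), and that of Gfi1 was higher in both at 21 (11.2%). At CpG-rich promoters Lsd1 was above Gfi1 in both tumors at 19.8% of TSSs. By tumor the members had 67.9% and 69.5% and the CpG-rich promoters 29.1% and 70.2%, so that the lower share of the latter in both tumors rested on tumor 39.

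Most member peaks were not centred on the start site. The peak covered the TSS at 65.8% and 61.5% of sites for Gfi1 and at 70.1% and 73.3% for Lsd1, against 95.0% to 98.9% at CpG-rich promoters. The midpoint lay within 500 bp of the TSS at 41.2% and 35.3% for Gfi1 and at 27.8% and 35.8% for Lsd1, where CpG-rich promoters had 69.1% to 73.5%. All 4 peaks covered the TSS at 94 sites (50.3%), and all 4 midpoints lay within 500 bp at 27 (14.4%). At 25 sites (13.4%) no peak covered it, and these are members through the 1 kb margin alone. Where the midpoint was more than 500 bp away, it lay on the side of the closest CpG-rich TSS at 64.2% to 70.2% of those sites, depending on the library. With a peak over a CpG-rich TSS this was 81.4% to 87.3%, and among the 122 other sites 48.4% to 57.9%. The midpoint fell in an intron of an annotated gene at 103 to 119 sites, in an exon at 45 to 60 and between genes at 22 to 28. For TSSs near the 1 kb limit, 29 members (26 genes) had their farthest peak at 800 to 1000 bp, and 34 TSSs (29 genes) were left out with it beyond 1000 and within 1200 bp.

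Sequence with 15 or more CpGs per window lay inside most member peaks. Among peaks that covered no CpG-rich TSS the median was at or a little above that cutoff. The richest window of 500 bp either side of a base within a peak held a median of 18 and 18 CpGs for Gfi1 and of 22 and 20 for Lsd1. For the peaks of each file that covered no CpG-rich TSS, the median of the richest window was 15 and 16 for Gfi1 and 18 and 16 for Lsd1. Of those peaks, 53 and 51 for Gfi1 and 29 and 44 for Lsd1 stayed below 15. At 95 sites (50.8%) all 4 peaks contained a window with 15 or more CpGs, at 69 some did, and at 23 (12.3%) none did. In 41 sites (21.9%) all 4 peaks held a window with 30 or more CpGs, and at 12 of these no peak covered a CpG-rich TSS. Median percentiles at the 41 sites came to 88.3 and 80.3 for Gfi1 and 87.2 and 87.6 for Lsd1. At the 23 sites they were 43.5 and 42.6, and 53.3 and 43.6. A wider peak has more windows to choose the richest from, so that these counts too move with width. Gfi1 medians at the 23 sites were 1377 and 1556 bp wide, and those of Lsd1 2025 and 1447 bp.

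At the 23 sites with CpG-poor peaks throughout, the promoter had peaks of both factors in which no such window reached 15 CpGs. Of these, 16 have a complete 5′ end. They include Prelp, a small leucine-rich proteoglycan of the extracellular matrix, Ptgds, the prostaglandin D synthase of brain and meninges, Carns1, the synthase of carnosine, Sardh, a mitochondrial sarcosine dehydrogenase, and Hsd11b1, which regenerates active glucocorticoid. Slc45a4, a solute carrier, had the highest mean percentile of the 16, with 53.0 and 52.7 for Gfi1 and 66.4 and 56.2 for Lsd1. Its 4 peaks ranked above the middle of each file, though in each file another of the 16 ranked higher. Prelp had percentiles of 61.3 and 46.3 for Gfi1 and 67.2 and 43.9 for Lsd1, and its 2 libraries of tumor 39 were above those of tumor 41. Carns1 had 59.8 and 46.0 for Gfi1 and 59.0 and 53.8 for Lsd1, with the lowest value in Gfi1 of tumor 41. In Ptgds the values came to 52.7 and 17.8 for Gfi1 and 42.7 and 62.2 for Lsd1, with both the lowest and the highest of them in tumor 41. The peaks of the 4 genes held at most 14 CpGs in any window.

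The 10 members with the highest mean percentile among those with complete 5′ ends were Iqcn, Rap2b, Fam129c, Kdm6b, Tomt, Cox11, Coq8a, Clec11a, Ak1 and Tspan32. At 8 of them a peak covered a CpG-rich TSS, and all 10 had peaks with a window of 15 or more CpGs in every library. Iqcn, a gene of the IQ motif family at chr8:70703457, had percentiles of 98.6 and 99.9 for Gfi1 and 99.7 and 99.2 for Lsd1. Its peaks were 9456 to 11595 bp wide, and their richest window held 130 CpGs. Midpoints relative to the TSS, with negative values upstream, were -4124, -4310.5, -4656 and -3710 bp in the order Gfi1 of tumors 39 and 41 and Lsd1 of tumors 39 and 41. The peaks thus reached the member start with their flank. Rap2b, a small GTPase of the Ras family, had percentiles of 98.6 and 99.7 for Gfi1 and 99.4 and 99.2 for Lsd1 at its start at chr3:61361638, with peaks that did not cover it and midpoints 2690.5, 2717.5, 2690.5 and 2612.5 bp away. All 4 peaks held the same window of 109 CpGs downstream of the start. The RefSeq start of Rap2b lies 2869 bp downstream of the member start, under all 4 peaks. The 120 bases before the RefSeq start hold 9 CpGs. Other named members also had a RefSeq start away from the member start, by 1432 bp at Iqcn, 1994 bp at Cox11 and 2565 bp at Pitpnm2. At Elf2 and Nisch the RefSeq start lay 14657 and 15296 bp away.

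Kdm6b, an H3 lysine 27 demethylase, had percentiles of 93.3 and 98.1 for Gfi1 and 99.7 and 99.2 for Lsd1 at chr11:69413675. Its peak widths were 18232 and 6606 bp for Gfi1 and 9322 and 15278 bp for Lsd1, and the tumors ordered the factors oppositely. Cox11, an assembly factor of cytochrome c oxidase, had percentiles of 96.9 and 88.6 for Gfi1 and 98.7 and 99.2 for Lsd1. Its peaks were 1877 to 2348 bp wide with midpoints at -1982.5, -1932, -2002.5 and -2033 bp, over the CpG-rich start of the same gene, and none covered the member start at chr11:90640178. The dense Cox11 stretch printed above lies under these peaks. Tomt, a transmembrane O-methyltransferase needed for hearing, had percentiles of 95.5 and 99.0 for Gfi1 and 97.5 and 97.7 for Lsd1 at chr7:101903785 and a CpG-rich TSS, assigned to Lamtor1, 2119 bp upstream. Coq8a, which acts in coenzyme Q synthesis, showed 95.2 and 96.9 for Gfi1 and 96.4 and 94.0 for Lsd1, with a CpG-rich start of its own 2417 bp upstream.

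Clec11a and Ak1 were the members of the 10 at which no peak covered a CpG-rich TSS. Clec11a, a secreted C-type lectin also known as a growth factor for hematopoietic and bone progenitors, had percentiles of 94.3 and 93.7 for Gfi1 and 92.6 and 92.2 for Lsd1 at chr7:44306902. Its midpoints were 2070.5, 1680, 1605 and 1958.5 bp from the start, inside the gene, and the window there held 72 CpGs. Ak1, an adenylate kinase, had 77.2 and 91.8 for Gfi1 and 96.3 and 93.1 for Lsd1 at chr2:32625437, with peaks of 6557 and 5637 bp for Gfi1 and 8631 and 8927 bp for Lsd1. Its richest window held 24 CpGs, and the midpoints lay 1611 to 3110 bp downstream of the start. Tspan32, a tetraspanin of blood cells, had 87.3 and 91.1 for Gfi1 and 93.0 and 85.8 for Lsd1, and its Lsd1 peaks were 15274 and 12859 bp wide against 5507 and 3014 bp for Gfi1.

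**Figure D5:**
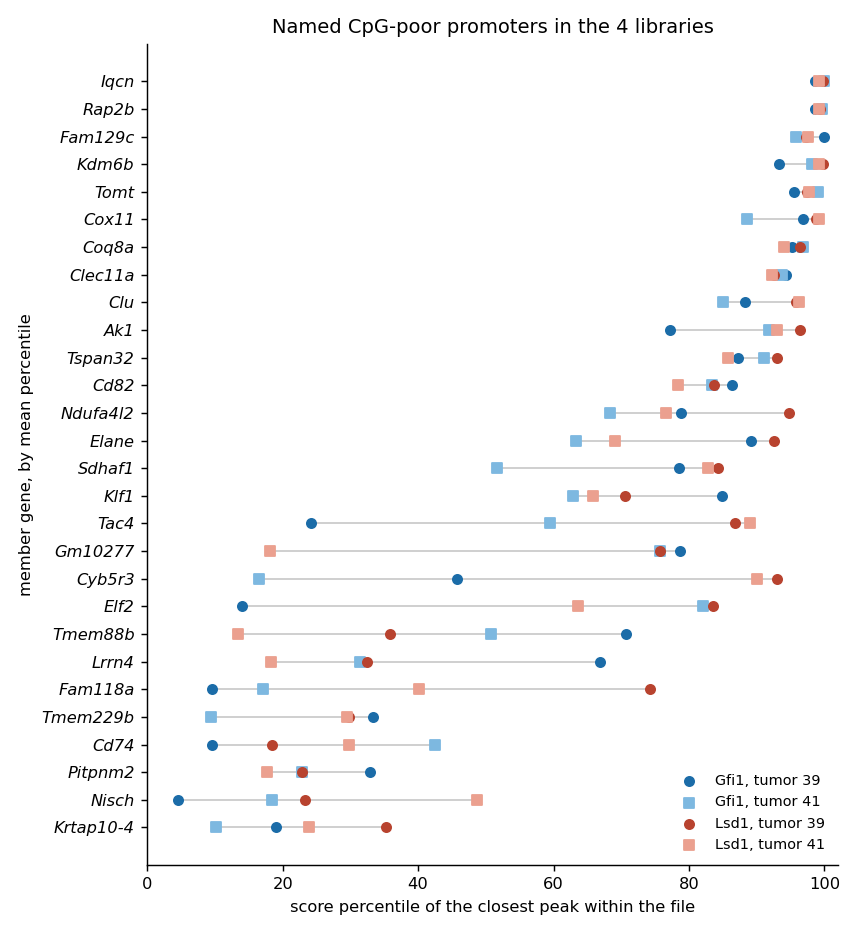
Score percentile of the closest peak within its file (x axis) for each named member gene (y axis, ordered by the mean), with 1 point per library and a line over the range. The 9 genes from Iqcn to Clu lie at 85.1 or above in every library, while Tac4 spans 24.2 to 89.0 and Fam118a 9.56 to 74.3.

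Among sites with a complete 5′ end the widest peaks lay at Cd82, Kdm6b, Iqcn, Ndufa4l2 and Tspan32. Cd82, a tetraspanin known as a suppressor of metastasis, had peaks of 11742 and 11213 bp for Gfi1 and 17135 and 21565 bp for Lsd1 that covered its start at chr2:93452679. It had percentiles of 86.4 and 83.4 for Gfi1 and 83.6 and 78.4 for Lsd1, and the richest window held 17, 17, 18 and 54 CpGs, so that 3 of the 4 peaks contained no window above 18 CpGs in spite of their width. Ndufa4l2, a mitochondrial protein induced by hypoxia, had peaks of 8217 and 6485 bp for Gfi1 and 8442 and 15499 bp for Lsd1 and percentiles of 78.8 and 68.4 for Gfi1 and 94.8 and 76.6 for Lsd1. The position of its closest peak differed between libraries, with midpoints at 4382, -3998, -2922.5 and 534 bp, so that the 4 values do not describe 1 interval.

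Among sites with a complete 5′ end the fewest CpGs were counted at Sdhaf1 (4) and Klf1 (5), followed by Elf2, Rap2b, Tomt, Iqcn, Zkscan7 and Satb1 with 6 each. Sdhaf1, an assembly factor of succinate dehydrogenase, had percentiles of 78.5 and 51.6 for Gfi1 and 84.3 and 82.8 for Lsd1. Its peaks held a window of 81 CpGs at each of the 4 libraries, and their midpoints were 1754.5, 1520.5, 437.5 and 1764 bp downstream of the start at chr7:30323895. The RefSeq start of Sdhaf1 lies 1520 bp downstream of this start, under all 4 peaks. The 120 bases before the RefSeq start hold 7 CpGs. Elf2, an ETS transcription factor, had percentiles of 13.9 and 82.1 for Gfi1 and 83.6 and 63.6 for Lsd1 at an internal start, chr3:51325987, 14574 bp from its CpG-rich TSS. Gfi1 in tumor 39 gave a peak of 746 bp and the other libraries peaks of 3151 to 4579 bp. The low value of that library sets the gene's spread.

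The 5 members with the lowest mean percentile among those with complete 5′ ends were in the lower 50% of every file. Krtap10-4, a keratin-associated protein of hair, had percentiles of 19.0 and 10.1 for Gfi1 and 35.3 and 24.0 for Lsd1 at chr10:77827095. Nisch, which encodes nischarin, had 4.57 and 18.4 for Gfi1 and 23.3 and 48.6 for Lsd1, Pitpnm2, a phosphatidylinositol transfer protein, 32.9 and 22.8 for Gfi1 and 22.9 and 17.6 for Lsd1, and Tmem229b 33.3 and 9.45 for Gfi1 and 29.9 and 29.5 for Lsd1. The peaks of these 4 genes were 707 to 2147 bp wide. Cd74, the invariant chain of MHC class II in antigen-presenting cells, completed the 5 lowest, with 9.58 and 42.6 for Gfi1 and 18.5 and 29.8 for Lsd1.

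Among sites with a complete 5′ end Gfi1 ranked above Lsd1 in both tumors most at Tmem88b, Gm10277 and Lrrn4. Tmem88b had percentiles of 70.8 and 50.8 for Gfi1 and 35.8 and 13.4 for Lsd1, and both Gfi1 values lay above both Lsd1 values. Its peaks held windows of 65, 65, 65 and 17 CpGs, and 3 of their midpoints were 1651 to 1773.5 bp downstream. Gm10277, a predicted gene, had 78.6 and 75.8 for Gfi1 and 75.8 and 18.2 for Lsd1, and the difference rested on Lsd1 in tumor 41, whose closest peak was 894 bp wide. Lrrn4, a leucine-rich repeat neuronal protein, had 66.9 and 31.4 for Gfi1 and 32.4 and 18.2 for Lsd1, with Gfi1 in tumor 41 below Lsd1 in tumor 39. Among the same sites the opposite order was largest at Cyb5r3, Tac4 and Fam118a. Cyb5r3, a cytochrome b5 reductase, had 45.7 and 16.5 for Gfi1 and 93.1 and 90.1 for Lsd1, and its Lsd1 peaks were 7833 and 8077 bp wide against 1904 and 1551 bp. The 2 Lsd1 peaks held a window of 77 CpGs that the Gfi1 peaks, with 10 and 11, did not include. Tac4, a tachykinin precursor, had 24.2 and 59.5 for Gfi1 and 86.8 and 89.0 for Lsd1. Of its peaks, Gfi1 in tumor 39 lay at the start with 13 CpGs in its richest window, and the other 3 extended upstream over 100 CpGs. Fam118a had 9.56 and 17.1 for Gfi1 and 74.3 and 40.2 for Lsd1, all from peaks with 14 or fewer CpGs in a window and with midpoints within 225 bp of the start at chr15:85042742. These genes were chosen for the size of the difference, which is therefore no evidence for it.

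Of the genes on the marker lists, 4 were members. Of the microglia and macrophage markers, 10 have a CpG-poor TSS that meets the rule and 1, Cd74, was a member. Ptprc, Csf1r, Aif1, C1qc, P2ry12, Trem2, Tyrobp and Lyz2 had no peak in any file, and Spi1, the myeloid regulator PU.1, had one in 3. Klf1, the erythroid master regulator, was the member among 4 erythroid genes, and Clu, a secreted chaperone of astrocytes, among 5 astrocyte genes. Elane, neutrophil elastase and a known target of Gfi1 in granulocytes, was the member among 7 genes tied to Gfi1 in blood. None of its peaks covered its start. In this list Mpo, Ctsg, S100a8 and S100a9 had no peak, Csf1 had the 2 Lsd1 peaks and Spi1 those of 3 files. None of 4 endothelial, 4 oligodendrocyte, 4 neuronal, 7 photoreceptor, 6 keratin or 10 liver, muscle and pancreas genes was a member, though Ins2, an insulin gene, had peaks in 3 files. These counts stand beside 2.43% over all genes with a CpG-poor TSS, and lists of this length cannot be set against it. The marker counts describe where peaks were and not which cells a tumor held, and the part of host cells in any peak was not tested.

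Large gene families were counted in the same way. Of 1114 olfactory receptor genes and 328 vomeronasal receptor genes with such a TSS, 0 were members, and of 762 predicted genes with names beginning in Gm, 2 were, where the share over all genes is 2.43%. Genes named Zfp, which encode zinc finger proteins, gave 3 members of 113 (2.65%, near that share), Zfp207, Zfp473 and Zfp639. Replication-dependent histone genes had no CpG-poor TSS that met the rule. The 1 site shared by 2 genes was that of Tmem176b and Tmem176a.

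The 4 members of the marker lists had very different peaks. Klf1 at chr8:84901928 had percentiles of 84.8 and 62.8 for Gfi1 and 70.6 and 65.9 for Lsd1. Its midpoints lay 1253.5, 877.5, 1090 and 1219.5 bp from the start, in annotated exon sequence by the dense stretch printed above, and the richest window held 89 CpGs with no CpG-rich TSS under the peak. Elane at chr10:79886247 had percentiles of 89.1 and 63.3 for Gfi1 and 92.5 and 69.0 for Lsd1, higher in tumor 39 for both factors. Its midpoints were upstream, at -3880.5, -2731, -3770.5 and -2594 bp, and the window there held 45 CpGs. The peaks ended 629, 763, 527 and 476 bp before the Elane start, and each covered a CpG-rich TSS upstream of it. Clu had 88.3 and 85.1 for Gfi1 and 95.8 and 96.2 for Lsd1 at a start with no complete 5′ end, 2150 bp downstream of its CpG-rich TSS. Cd74 had 1 of the weakest sets of values, given above, from peaks of 788 and 1576 bp for Gfi1 and 1023 and 1503 bp for Lsd1 in which no window exceeded 11 CpGs.

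Short sequence motifs were counted within 500 bp either side of 1 TSS per gene, on both strands. AATCNNNGC, a core of the Gfi1 site, was present at 31.9% of the 188 member genes, at 29.3% of the 7219 genes with a CpG-poor TSS and no peak, and at 30.4% of all 20722 coding genes. The E-box CAGCTG was found at 56.9%, 38.7% and 42.2% in this order, and at 63.4% of the 123 member genes whose peaks cover no CpG-rich TSS. CACGTG, an E-box bound by Myc, was found at 11.7%, 7.94% and 16.9%. GGGCGG, a GC box, was at 30.9%, 8.99% and 60.4%, TGANTCA, an AP-1 site, at 24.5%, 29.8% and 19.3%, TTGGCA, which is part of the nuclear factor I site, at 49.5%, 44.5% and 35.9%, and CCAAT, which can overlap TTGGCA on the opposite strand, at 75%, 79.2% and 69.9%. A TATAAA on the transcribed strand from 40 to 20 bp before the TSS was found at 4.26%, 4.13% and 2.31%. The median GC content of the 3 sets was 51.4%, 42.8% and 55.0%, and motif shares move with base composition. A match describes these letters in the window and not a bound site.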

How the data were processed

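ChIP-seq reads of Gfi1 and Lsd1 from MG tumors 39 and 41 were aligned by the authors to mm10 with BWA 0.6.2 and checked with FastQC. Files were merged with Picard, and peaks were called in each library separately with MACS at default parameters against input chromatin. For each factor the authors then formed a high-confidence set, from peaks in the upper 20% of enrichment that overlapped between the 2 tumors. That filter was not applied here, and all listed peaks were used. The deposited lists give an interval and a score per peak, and how the authors computed the score is not given in the sources used here. Since read counts are absent from the lists, the depth behind a single peak is unknown. By library, the paper reports more uniquely mapped reads in tumor 41 than in tumor 39 for Gfi1, and fewer for Lsd1. No adjustment for library depth was made. Scores were compared only as percentiles within a list.

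TSSs were taken from GENCODE M21 for GRCm38 (mm10), where the authors used M9, and CpGs were counted in the RefSeq GRCm38.p6 sequence. A TSS was coding when its transcript was annotated as protein-coding. For each member the closest peak was used in each file, and members that shared one were joined into sites. Medians are over distinct peaks. The genes named were, among sites with a complete 5′ end, the 10 highest and 5 lowest in mean percentile, the 5 widest, the 5 with the fewest CpGs (ties in genome order), the 3 largest differences each way between the factors, and the members of the marker lists. Genes with CpG-poor peaks throughout, Klf13, Zkscan7, Satb1, Zfp and Tmem176 genes were added after their values were seen. Members, lists and alternatives were chosen with earlier results of these data known. The RefSeq promoter table matched 143 of the 188 genes. The code for the rule was checked on simulated data, in which 200 of 200 CpG-poor TSSs with planted peaks were found. The peaks were planted within the limits of the rule, so that this checks the code and says nothing about the members. Python 3.11.15, numpy 2.4.6, pandas 2.3.3, scipy 1.17.1 and matplotlib 3.10.9 were used.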

Additional observations from a re-analysis of the deposited data

Results flagged for a closer look

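One contrast went opposite ways in the factors in every library. The median width of member peaks minus that of peaks at CpG-rich promoters was -381 bp in tumor 39 and -300 bp in tumor 41 with Gfi1. With Lsd1 it was 641 bp and 143 bp. The difference between the factors was not tested. It was not seen at the 122 sites whose peaks cover no CpG-rich TSS, where both factors had narrower peaks than at CpG-rich promoters. Those sites were chosen in a way that favours narrow peaks, so that no conclusion is drawn from them.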

How the results depend on the processing

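The libraries of the 2 factors are paired by tumor, and differences within a tumor are given as values. No paired test was run, since 2 tumors are too few for one. The number of member genes, 188 by the rule, was 97 when the peak had to cover the TSS and 380 with a peak within 2000 bp. It was 40 with fewer than 10 CpGs and 416 with fewer than 20, 99 at 5 kb from CpG-rich TSSs and 585 with no distance, 303 with a peak in at least 3 files, 360 with all transcripts of coding genes, and 80 with peaks in the upper 50% of the score. An alternative chosen after seeing the data, which kept sites where no peak covers a CpG-rich TSS, left 123. Leaving out 1 library gave 198 to 248 genes.

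The share of CpG-poor TSSs with peaks in all files was 1.19% and 4.04% for the 2 peak windows, 0.619% and 3.93% for the CpG cutoffs, 1.38% and 5.63% for the distances, 3.43% with at least 3 files and 1.06% in the upper 50%. With CpGs counted within 1000 bp and fewer than 30 it was 3.04%. Without 1 library it was 2.29% to 2.84%.

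The Gfi1 median percentile, 55.3, was 49.4 at 5 kb and 71.2 with no distance, 48.9 with at least 3 files, 60.1 with a 2000 bp window or the upper 80% of the score, 78.1 in the upper 50% and 48.6 where no peak covers a CpG-rich TSS. That of Lsd1, 66.4, was 60.1 and 76.4 for the distances, 57 with at least 3 files, 71.4 and 84.2 for the score cutoffs and 57.3 where no peak covers one. Without 1 library they were 49.97 to 54.3 and 61.2 to 67.6.

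The Gfi1 median width, 1803.5 bp, varied by 12 bp (SD) between tumors, so that all 19 alternatives moved it by more. It was 1562 bp at 5 kb and 2144 bp with no distance, 1971 and 1933 bp for the CpG cutoffs, 1918.5 bp with 8 CpGs in 250 bp and 1619 bp with 30 in 1000 bp, 1820 and 1832.5 bp for the peak windows, 1665 bp with at least 3 files, 1929.5 bp with all transcripts, 1842 bp with complete 5′ ends, 1959 bp with the highest-scoring peak, 2122.5 and 3258.5 bp for the score cutoffs and 1527.5 bp where no peak covers a CpG-rich TSS. The Lsd1 median, 2891.5 bp, was 2355 bp at 5 kb, 2384 bp with 30 CpGs in 1000 bp, 2325 bp with at least 3 files, 4486.5 bp in the upper 50% and 2133 bp where no peak covers one. Without 1 library they were 1736 to 1763 bp and 2561 to 3012 bp. Other values moved by less than the SD between tumors, or, for gene counts, by less than 1.5 times. For the share of TSSs the SD is that over the shares of the 4 files.

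The lists set no limit for a promoter without a listed peak, and the SD rests on 2 tumors.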
